A study of Mus musculus with 6 samples.

Results

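The subject is a set of 8 genes that encode feedback inhibitors of the ERK mitogen-activated protein kinase pathway: the phosphatase genes Dusp4, Dusp5 and Dusp6, the Sprouty genes Spry1, Spry2 and Spry4, and the Spred genes Spred1 and Spred2. They were picked by name, as 8 of the 36528 Entrez gene models counted in each library. Polyadenylated RNA of mouse microglia, the resident macrophages of the brain, was sequenced from brain cells kept in vitro, in 3 groups of 2 libraries. The groups were wild-type cells without treatment, cells labelled both loxP and Cop1 KO without treatment, and wild-type cells given LPS (lipopolysaccharide, a bacterial cell-wall component that signals through Toll-like receptor 4). The labels used here state no strain, age, sex, Cre driver, LPS dose, exposure time, or whether replicates were separate cultures or animals, so p-values measure the spread between these libraries, which may be technical. No Cop1 KO library was given LPS.

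Growth factors, and in macrophages also Toll-like receptors, start a kinase cascade in which RAF activates MEK and MEK activates ERK. Active ERK induces genes whose products damp the same cascade. Sprouty proteins act near the receptor and on RAF, Spred proteins bring the Ras GTPase-activating protein neurofibromin to Ras at the membrane, and the DUSP phosphatases remove the activating phosphates from ERK itself. DUSP6 resides in the cytoplasm, whereas DUSP4 and DUSP5 are nuclear. COP1 is a ubiquitin ligase component that marks transcription factors for degradation, among them C/EBP beta and the ETS-family factors ETV1, ETV4 and ETV5.

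RefSeq windows on GRCm38.p6, from 250 bases before to 50 bases after the gene start, matched 6 of the 8 members, all but Dusp4 and Spry4. The 250 bases before the start are shown for the pair raised most by LPS (Dusp5 and Spred1), for the member lowered most by LPS (Dusp6) and for Spry1, 1 of the 2 members lowered most in Cop1 KO. Each is printed 5′ to 3′ on the strand of its gene, which is the plus strand in all 4, and capitals mark CArG boxes, the sites bound by serum response factor.
Dusp5, chr19:53528895-53529144: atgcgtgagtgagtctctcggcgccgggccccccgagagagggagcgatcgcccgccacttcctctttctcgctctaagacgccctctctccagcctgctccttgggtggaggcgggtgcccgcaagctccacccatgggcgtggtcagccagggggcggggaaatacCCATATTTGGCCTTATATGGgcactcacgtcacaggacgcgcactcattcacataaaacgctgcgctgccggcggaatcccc
Spred1, chr2:117120821-117121070: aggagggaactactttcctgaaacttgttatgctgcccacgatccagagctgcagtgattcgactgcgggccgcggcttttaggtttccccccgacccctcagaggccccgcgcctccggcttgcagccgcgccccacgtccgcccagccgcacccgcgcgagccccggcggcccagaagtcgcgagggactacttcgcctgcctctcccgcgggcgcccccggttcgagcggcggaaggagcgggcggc
Spry1, chr3:37639697-37639946: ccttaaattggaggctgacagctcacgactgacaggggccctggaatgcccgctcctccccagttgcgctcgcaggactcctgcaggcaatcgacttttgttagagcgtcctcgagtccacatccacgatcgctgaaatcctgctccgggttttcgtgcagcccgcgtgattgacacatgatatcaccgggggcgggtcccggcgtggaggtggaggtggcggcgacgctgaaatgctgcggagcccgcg
Dusp6, chr10:99262981-99263230: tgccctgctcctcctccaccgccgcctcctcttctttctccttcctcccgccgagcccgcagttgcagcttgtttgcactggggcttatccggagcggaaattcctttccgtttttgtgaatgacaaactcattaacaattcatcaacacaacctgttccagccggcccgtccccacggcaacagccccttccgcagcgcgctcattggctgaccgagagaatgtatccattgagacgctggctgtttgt

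The 6 windows of 300 bases were rich in CpG dinucleotides. They held 17 (Spred2) to 40 (Spred1) of them, against a median of 7 over all 32851 windows in the table, and their GC content lay between 57.0% and 72.3%, against a median of 52.7%. Both strands of the 6 windows were searched for 7 motifs. These were the cyclic AMP response element TGACGTCA (in 1.79% of all windows), the AP-1 site TGANTCA (7.81%), the ETS core CCGGAA (14.9%), the C/EBP site TTGCNNAA (10.8%), the TATA box TATAAA (13.6%), the NF-kB consensus (4.51%) and the CArG box (1.63%). The members had 3 matches in all, and none overlapped another. Dusp5 held 2 adjoining CArG boxes, CCATATTTGG starting at position -82 from the gene start and CCTTATATGG at -72, and 6 of the 32851 windows held more than 1. The third match was an ETS core in Spry2 starting at position 34 after the start. A match describes the letters of the window and not a bound site.

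The members differ in gene structure (RefSeq positions on GRCm38, exon structure from GENCODE M21). Spry1 (Entrez Gene 24063, chromosome 3, 37639947 to 37644599), Spry2 (24064, chromosome 14, 105891947 to 105896819) and Spry4 (24066, chromosome 18, 38586247 to 38601347) each carry their whole coding sequence in 1 exon. Spred1 (114715, chromosome 2, 117121071 to 117182279) and Spred2 (114716, chromosome 11, 19924442 to 20024026) have 7 coding exons each. Dusp4 (319520, chromosome 8, 34807610 to 34819894) and Dusp5 (240672, chromosome 19, 53529145 to 53541809) have 4, and Dusp6 (67603, chromosome 10, 99263231 to 99267489) has 3. In an annotation overlap that the unstranded libraries cannot resolve, 24.4% of the exonic bases of Spry1 lie opposite Gm42922, and 22.1% of those of Dusp5 lie opposite AC137853.2. The other 6 members overlap no annotated exon.

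Library totals lay between 20568144 and 22553708 counts, and the 2 replicates of each group were distinct libraries (a chi-square statistic of 1.58 to 2.47 per degree of freedom, where sampling noise alone gives about 1). Levels of a gene are given as CPM, its counts relative to library depth after TMM scaling, a method that sets libraries to a common level from the bulk of their genes. Cop1, the targeted gene, measured 8.06 and 9.23 CPM in the Cop1 KO libraries, 12.7 and 11.5 in untreated wild type and 23.4 and 27.2 after LPS. It was lower in Cop1 KO by a log2 fold change of -0.49 (SE 0.11, edgeR adjusted p = 0.00016, and 0.057 and 0.075 with limma on nRPKM, the authors' length-scaled values). Reads from exons outside a deleted part would still be counted, but whether they make up the remaining Cop1 RNA was not tested. The libraries also differed in cell type markers. The summed level of 11 astrocyte markers was 51.2 to 55.7 CPM in Cop1 KO, against 787 to 790 in untreated wild type and 878 to 883 after LPS. Of these markers 10 were lower and 1 was higher in Cop1 KO than in wild type. Among them Gfap, the astrocyte intermediate filament gene, fell from 314 CPM in both untreated wild-type libraries to 6.26 and 5.47 in Cop1 KO, and no astrocyte marker was at 0. The 10 neuron markers summed to 77.8 to 79.2 CPM in untreated wild type, 6.26 to 7.20 in Cop1 KO and 85.6 to 86.1 after LPS, with 8 of 9 tested lower in Cop1 KO. Nefl, at 0 in Cop1 KO, was at only 0.278 and 0.112 CPM in untreated wild type. The 12 homeostatic microglia markers summed to 5575 to 5577, 8589 to 8616 and 3024 to 3074 CPM. Of 11 tested, 8 were higher and 0 lower in Cop1 KO, and 3 were higher and 8 lower with LPS. The microglial gene Siglech was at 0 in both Cop1 KO and LPS, and at only 0.0794 and 0 CPM in untreated wild type. Of the oligodendrocyte lineage markers 6 of 8 tested were lower and 2 higher in Cop1 KO, with sums of 288 to 294, 199 to 201 and 367 to 383 CPM. With LPS 4 of them were lower and 1 was higher, and the higher sum came from Cnp, at 229 and 220 CPM against 59.4 and 59.0 in untreated wild type. Mog, at 0 in Cop1 KO, was at only 0.0794 and 0.112 CPM in untreated wild type. In the same order the fibroblast list summed to 1036 to 1049, 817.1 to 817.3 and 850 to 852 CPM, most of it Fn1, the fibronectin gene, at 964 and 979 CPM in untreated wild type and 690 and 693 in Cop1 KO. Against that sum, 4 of 7 fibroblast markers tested were higher and 2 lower in Cop1 KO (median log2 fold change 0.98), among them the collagen gene Col1a1 at 66.1 and 61.5 CPM against 27.4 and 25.8. The endothelial and mural list summed to 198 to 202, 198.1 to 199.8 and 239 to 242 CPM, but 4 of 7 tested were higher and 2 lower in Cop1 KO (median 0.87). There Flt1 was at 72.6 and 73.9 CPM against 38.1 and 37.1, and Vwf at 67.8 and 70.9 against 104 and 103. The peripheral monocyte and macrophage list summed to 284 to 293, 146 to 148 and 244 to 247 CPM, most of it Mrc1, with 4 of 6 tested lower and 1 higher in Cop1 KO. The endothelial gene Cldn5 and the monocyte gene Ly6c2 were at 0 in all groups, and the 7 lymphocyte markers summed to less than 1 CPM in each library. Beside these marker counts, 30.3% of all genes tested were called lower and 28.1% higher in Cop1 KO. With LPS 43.4% of all genes were called lower and 30.2% higher. In bulk RNA, fewer cells of a type and less RNA per cell cannot be told apart. The part that these marker differences have in the results on the members was not tested.

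**Figure D1:**
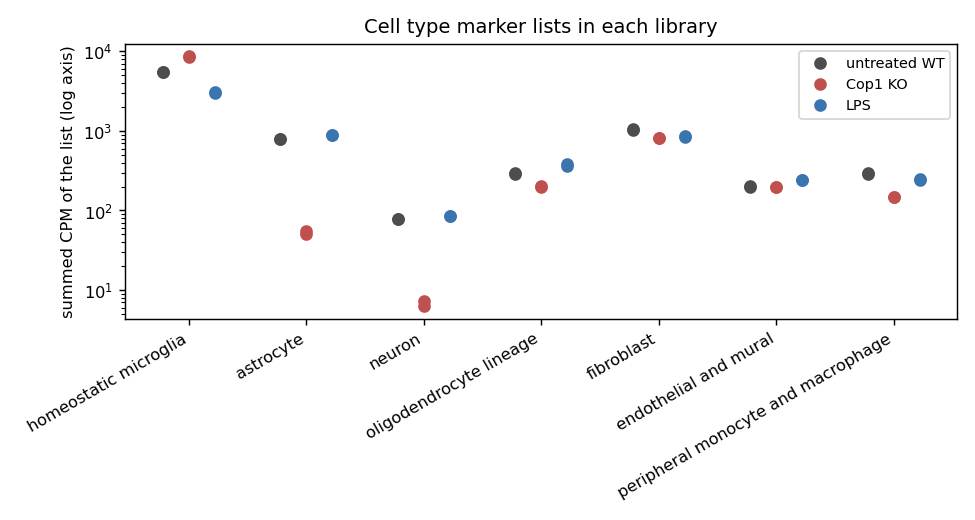
Summed CPM of 7 cell type marker lists (log axis) in each of the 6 libraries, coloured by group. The astrocyte and neuron sums of the 2 Cop1 KO libraries sit far below those of the other 4 libraries, at 51.2 to 55.7 and 6.26 to 7.20 CPM, while the microglia sum is highest in Cop1 KO at 8589 to 8616.

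All 8 members passed the filter on low counts and were tested. Levels between genes were compared per length, on the nRPKM scale of the deposited files (reads relative to gene length and library depth, times a size factor per library). In untreated wild type Dusp6 was the most abundant member at 21.7 ± 0.451 nRPKM (SD, n = 2), followed by Spred1 (12.1 and 11.1 in the 2 libraries), Dusp4 (8.33 and 7.67) and Spry2 (4.78 and 4.38). Spred2 (2.73 and 2.80 nRPKM) and Dusp5 (2.77 and 2.62) overlapped, and Spry1 (0.977 and 1.03) and Spry4 (0.661 and 0.836) were lowest. Among the 15585 tested genes, Dusp6 stood at the 89.3rd percentile of level and Spry4 at the 24.6th. In Cop1 KO the order was the same on average, with Dusp6 at 26.7 nRPKM, and Spry1 (0.151 and 0.0869) and Spry4 (0.0725 and 0.0928) overlapped at the bottom. With LPS the order changed. Spred1 was highest at 54.4 nRPKM, then Dusp5 at 19.5 and Dusp6 at 9.16, and the ranges of Spred2 (1.94 to 2.14) and Spry1 (1.65 to 1.99) overlapped. The overlaps of Spred2 depend on the gene lengths used. Per kilobase of annotated exon, its mean in untreated wild type was 7.93 CPM, against 1.86 for Dusp5. With LPS it was 5.23, against 2.18 for Spry1.

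**Figure D2:**
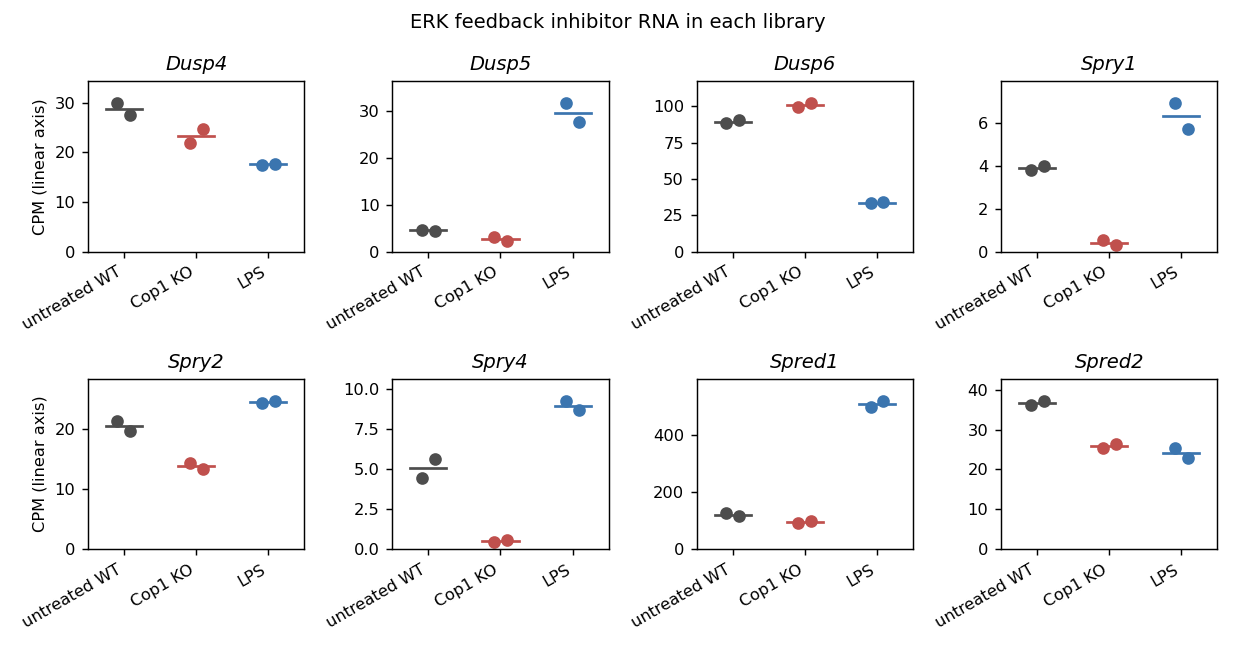
CPM of each member (linear axes starting at 0) in the 2 libraries of each group, with a line at the group mean. Spry1 and Spry4 lie near 0 in Cop1 KO, Dusp5 and Spred1 rise well above the other groups with LPS, and Dusp6 is lowest with LPS at 33.7 and 34.0 CPM.

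The first comparison set Cop1 KO against untreated wild type. RNA of 7 members was lower in Cop1 KO and RNA of 1, Dusp6, was slightly higher. The decrease was about 9-fold or more for Spry1 and Spry4 and less than 2-fold for the other 5. In this comparison 58.4% of all genes tested were called, 30.3% lower and 28.1% higher (edgeR quasi-likelihood test, adjusted p below 0.05), beside 7 of 8 members lower and 1 higher. The 2 groups did not overlap for any member, nor for 77.3% of all genes. The median log2 fold change of the members was -0.54, against -0.01 for all genes.

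Among the Sprouty genes, whose products inhibit signalling from receptor tyrosine kinases to Ras and RAF, Spry1 was at 3.81 and 4.03 CPM in untreated wild type (96 and 108 counts) and at 0.540 and 0.309 CPM in Cop1 KO (12 and 7 counts). Both Cop1 KO libraries lay below both wild-type libraries, a 9.15-fold decrease (log2 fold change -3.19, SE 0.37, edgeR adjusted p = 5.3e-14). Spry4 was at 4.49 and 5.67 CPM in wild type (113 and 152 counts) and at 0.450 and 0.574 in Cop1 KO (10 and 13 counts). Its decrease was 9.83-fold (-3.30, SE 0.33, adjusted p = 3.1e-16), and 5.8% of all tested genes had a lower log2 fold change. Spry2, the most abundant Sprouty gene, was at 21.5 and 19.7 CPM in wild type and 14.4 and 13.4 in Cop1 KO, without overlap. It fell by 0.56 on the log2 scale (SE 0.09, adjusted p = 1.7e-07), and its 95% interval of -0.74 to -0.39 does not reach those of Spry1 (-3.92 to -2.47) or Spry4 (-3.95 to -2.64). These decreases occurred in the libraries in which the astrocyte markers fell from a sum of at least 787 to at most 55.7 CPM.

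Composition within a family does not depend on the scaling of libraries, but it does depend on the gene lengths used. Of the summed nRPKM of Spry1, Spry2 and Spry4, Spry2 made up 74.5% and 70.1% in untreated wild type, rising to 94.0% and 94.8% in Cop1 KO, and 63.4% and 66.7% after LPS. Spry1 made up 15.2% and 16.5%, 4.06% and 2.51%, and 20.7% and 17.8% in the same order. With annotated exon lengths, Spry2 made up 82.0% and 78.5%, 96.1% and 96.6%, and 73.0% and 75.7%.

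**Figure D3:**
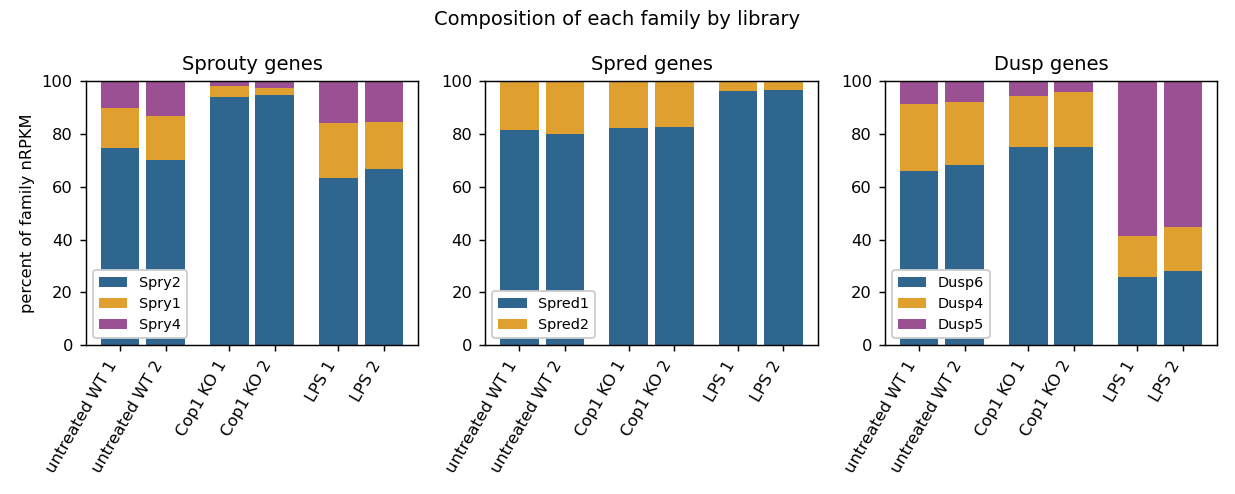
Share of each gene in the summed nRPKM of the members of its family, for each of the 6 libraries (stacked bars, 0 to 100%). Spry2 fills at least 94.0% of the Sprouty bars in Cop1 KO, and Dusp5 takes 55.2% and 58.8% of the Dusp bars with LPS against at most 8.52% in the other libraries.

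The Spred genes, which encode membrane-associated inhibitors of Ras, fell less. Spred1 was at 126 and 116 CPM in untreated wild type and at 93.2 and 99.4 in Cop1 KO, a decrease of 0.33 on the log2 scale (SE 0.04, edgeR adjusted p = 1.2e-09). Spred2 was at 36.2 and 37.1 CPM in wild type and 25.3 and 26.3 in Cop1 KO (-0.51, SE 0.07, adjusted p = 1.1e-08). The groups did not overlap for either gene, and Spred1 kept 79.9% to 82.7% of the summed nRPKM of Spred1 and Spred2 in these 4 libraries (68.1% to 72.0% with annotated exon lengths).

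The phosphatase genes were divided. Dusp5, whose product is a nuclear ERK phosphatase, was at 4.72 and 4.47 CPM in untreated wild type and 3.20 and 2.30 in Cop1 KO, a decrease of 0.74 on the log2 scale (SE 0.18, edgeR adjusted p = 0.00024). Dusp4 was at 29.9 and 27.5 CPM in wild type and 21.9 and 24.7 in Cop1 KO (-0.30, SE 0.08, adjusted p = 0.0006). The Dusp4 call was lost with DESeq2 (adjusted p = 0.11) and with limma on the authors' nRPKM (adjusted p = 0.099), with values of 1.6e-07 to 0.11 over all alternatives. Dusp6, whose product is a cytoplasmic ERK phosphatase, was at 88.4 and 91.0 CPM in wild type and 99.4 and 102 in Cop1 KO. This increase of 0.17 (SE 0.05, adjusted p = 0.0012) became -0.02 when only library size was used for scaling. Relative to the median gene it was 0.17 under both scalings. A scaling shifts all genes alike, so this equality holds by construction and does not settle the direction.

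The second comparison set LPS against untreated wild type. Spred1 and Dusp5 rose several-fold, the 3 Sprouty genes rose by less than 2-fold, and Dusp6, Dusp4 and Spred2 fell. In this comparison 73.7% of all genes tested were called, 30.2% higher and 43.4% lower, beside 5 of 8 members higher and 3 lower. The 2 groups did not overlap for any member, nor for 85.7% of all genes. The members' median log2 fold change was 0.48, against -0.18 for all genes. Because the wild-type libraries serve as the control in both comparisons, the members' values are set side by side here with no measure of their agreement.

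Dusp5 rose from 4.72 and 4.47 CPM in untreated wild type to 31.8 and 27.7 with LPS, which is 6.47-fold (2.69, SE 0.12, edgeR adjusted p = 8.2e-28). Its share of the summed nRPKM of Dusp4, Dusp5 and Dusp6 went from 8.52% and 8.12% to 58.8% and 55.2%. With annotated exon lengths it went from 4.66% and 4.42% to 42.8% and 39.3%, above the 35.8% and 38.1% of Dusp6 but under a majority. Dusp6 moved the other way, from 88.4 and 91.0 to 33.7 and 34.0 CPM, a 2.65-fold decrease (-1.41, SE 0.06, adjusted p = 1.9e-29). Among the LPS libraries the nuclear phosphatase gene Dusp5 was thus more abundant per length than Dusp6, the reverse of the order in both untreated groups. Dusp4, the other nuclear phosphatase gene, fell from 29.9 and 27.5 to 17.6 and 17.7 CPM (-0.70, SE 0.09, adjusted p = 1.2e-10).

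Spred1 had the highest level of all members with LPS, at 499 and 519 CPM against 126 and 116 in untreated wild type. It rose 4.20-fold (2.07, SE 0.04, edgeR adjusted p = 1.1e-44), and 92.5% of all tested genes had a lower log2 fold change. Spred2 went from 36.2 and 37.1 to 25.4 and 22.9 CPM (-0.60, SE 0.07, adjusted p = 3.2e-10). Spred1 made up 96.1% and 96.6% of the summed Spred nRPKM with LPS.

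The Sprouty genes rose little with LPS. Spry4 was at 9.28 and 8.69 CPM with LPS against 4.49 and 5.67 (0.82, SE 0.15, edgeR adjusted p = 3.6e-06), and Spry1 at 6.93 and 5.74 against 3.81 and 4.03 (0.69, SE 0.17, adjusted p = 0.00039). Spry2 was at 24.5 and 24.8 against 21.5 and 19.7 (0.26, SE 0.08, adjusted p = 0.0045), and its call was lost without untreated wild-type replicate 2 (adjusted p = 0.096, with 7.7e-06 to 0.096 over all alternatives). With library size only, Spry1 and Spry4 kept an increase that did not pass (0.13 and 0.26, edgeR adjusted p = 0.475 and 0.107), and Spry2 was lower (-0.30, adjusted p = 0.000771). That scaling moved the median of all genes by -0.56. Relative to the median gene Spry1, Spry2 and Spry4 stood at 0.87, 0.44 and 1.0 under both scalings. Because a scaling shifts all genes alike, these equal values follow by construction and do not settle the direction.

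**Figure D4:**
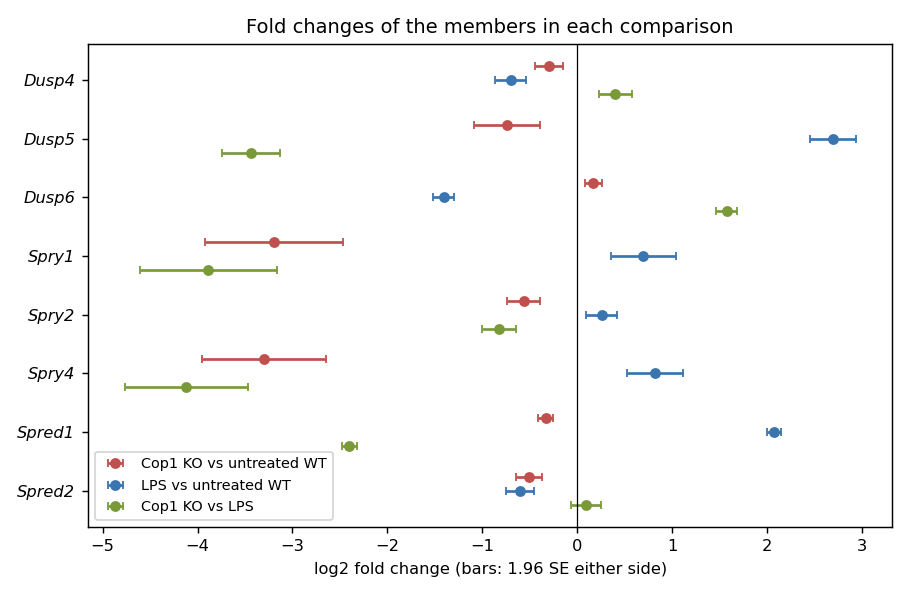
Log2 fold change of each member in the 3 comparisons (points, with 95% intervals as bars). Spry1 and Spry4 have the lowest values in Cop1 KO against untreated wild type, at -3.19 and -3.30, and Dusp5 and Spred1 have the highest with LPS, at 2.69 and 2.07.

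The direct contrast of Cop1 KO with LPS tests whether the members differ between these states. Of all genes 79.6% were called here, 39.9% higher and 39.6% lower in Cop1 KO, and of the members 5 were lower, 2 higher and 1 did not pass. Lower in Cop1 KO were Spry4 by 17.4-fold (-4.12, SE 0.33, edgeR adjusted p = 1.3e-21), Spry1 by 14.8-fold (-3.89, SE 0.37), Dusp5 by 10.8-fold (-3.44, SE 0.16), Spred1 by 5.28-fold (-2.40, SE 0.04) and Spry2 by 1.77-fold (-0.82, SE 0.09). Dusp6 was 2.98-fold higher in Cop1 KO (1.58, SE 0.06) and Dusp4 1.32-fold higher (0.40, SE 0.09). For Spred2 the groups overlapped and the difference of 0.09 had a 95% interval of -0.06 to 0.25 (adjusted p = 0.28). With library size only it was 0.46 (adjusted p = 6.1e-07; 6.1e-07 to 0.83 over all alternatives).

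Genes with the nearest pair of log2 fold changes to each member, in Cop1 KO and with LPS, were listed from 10388 named genes whose mean CPM reached 5, as a description over 3 groups and 6 libraries. For Spry1 they were Ret, a receptor tyrosine kinase gene, Zfp365 and Neto2, at distances of 0.03, 0.09 and 0.13 on the log2 scale. For Spry4 they were Neto2, Dlgap1 and Ret, at 0.10 to 0.16. Spred1 lay nearest to Tagln2 (0.01), Stat3 (0.10) and Phlda1 (0.11), and Dusp5 nearest to Gpd2, Cav1 and Grk3 (0.16 to 0.22). Nearest to Dusp6 were Iqce, Sfxn3 and Zswim6 (0.01 to 0.03), to Dusp4 Srebf2, Qrsl1 and Nolc1 (0.01 to 0.02), to Spry2 Eif4e, Dlg4 and Gfpt1 (0.01 to 0.06) and to Spred2 Nop58, Agpat5 and Cep41 (0.02 to 0.04).

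The remaining genes of the families give context. Spry3 measured 2.86 and 2.24 CPM in untreated wild type, 2.70 and 3.49 in Cop1 KO and 0.224 and 0.664 after LPS. It fell with LPS by 2.53 (SE 0.44, edgeR adjusted p = 2.5e-08) and did not pass the test in Cop1 KO. Spred3 fell in Cop1 KO by 0.45 (SE 0.11, adjusted p = 0.00022), a call lost with limma on nRPKM (adjusted p = 0.066 and 0.07). Of 7 other DUSP genes for MAP kinase phosphatases, 2 rose and 2 fell in Cop1 KO (28.1% and 30.3% of all genes). With LPS 4 of these rose and 2 fell (30.2% and 43.4% of all genes). In Cop1 KO, Dusp8 fell by 1.07 (SE 0.18) and Dusp9, which encodes a cytoplasmic ERK phosphatase related to DUSP6, by 0.79 (SE 0.21), and Dusp7, of the same subgroup, rose by 0.31 (SE 0.06). Dusp10 was at the threshold in Cop1 KO (0.48, SE 0.21, adjusted p = 0.049). With LPS, Dusp2, which encodes an inducible nuclear phosphatase, rose from 0.635 and 0.634 to 294 and 274 CPM (8.79, SE 0.24, adjusted p = 1.9e-56). Dusp16, Dusp1 and Dusp10, whose products act mainly on the stress kinases p38 and JNK, rose by 2.26 (SE 0.07), 2.09 (SE 0.04) and 1.60 (SE 0.20). Dusp7 and Dusp9, like Dusp6, fell with LPS, by 0.62 (SE 0.07) and 2.06 (SE 0.31).

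Upstream of the members, receptor and ligand genes were mostly lower in Cop1 KO. Over all genes tested, 28.1% rose and 30.3% fell in Cop1 KO, and 30.2% rose and 43.4% fell with LPS. Of 16 growth factor receptor genes tested 12 fell and 3 rose, with a median of -1.81, and with LPS 6 rose and 4 fell. Pdgfra, Ntrk2 and Ddr1 fell in Cop1 KO by 5.03 (SE 0.34), 4.52 (SE 0.17) and 3.24 (SE 0.10), and Pdgfra and Fgfr3 are also on the lists of oligodendrocyte lineage and astrocyte markers. Csf1r, the microglial receptor for colony-stimulating factor 1, instead rose in Cop1 KO by 0.89 (SE 0.03) and fell with LPS by 1.23 (SE 0.03), with 15.1% of its exonic bases opposite Hmgxb3. Of 12 ligand genes tested 7 fell and 3 rose in Cop1 KO, and 6 rose and 6 fell with LPS. Hbegf, which encodes a ligand of the EGF receptor, fell in Cop1 KO by 2.08 (SE 0.09) and rose with LPS by 1.83 (SE 0.06), and Csf1 fell by 0.93 (SE 0.06) and rose by 3.13 (SE 0.05). Other ligand genes moved differently. Vegfa fell in both comparisons (-1.21, SE 0.08, and -1.40, SE 0.09), and Pdgfb rose in both (0.55, SE 0.04, and 0.84, SE 0.04). Igf1 rose in Cop1 KO by 0.33 (SE 0.03) and fell with LPS by 1.04 (SE 0.03). Hgf did not pass in Cop1 KO and fell with LPS by 2.20 (SE 0.07).

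Genes of the cascade itself moved in both directions. Beside the lists below, 28.1% of all genes rose and 30.3% fell in Cop1 KO, and 30.2% rose and 43.4% fell with LPS. Of 13 genes for RAF, MEK, ERK and related kinases and scaffolds, 7 rose and 3 fell in Cop1 KO with a median of 0.20, and 4 rose and 7 fell with LPS. Map3k8, whose kinase links Toll-like receptors to MEK, rose by 0.86 (SE 0.08) in Cop1 KO and by 3.07 (SE 0.07) with LPS, and Map2k1, the MEK1 gene, rose by 1.83 (SE 0.04) with LPS. Of 16 genes for Ras proteins and their activators, 3 rose and 7 fell in Cop1 KO, and 6 rose and 8 fell with LPS. The medians of this list, -0.15 and -0.13, lay near those of all genes, -0.01 and -0.18. Rasgrp3, which encodes a Ras activator, fell by 6.04 (SE 0.14) with LPS. Of 10 genes for Ras GTPase-activating proteins, 1 rose and 7 fell in each comparison. Rasa4 was the 1 that rose, by 0.80 (SE 0.03) in Cop1 KO and 2.07 (SE 0.03) with LPS.

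Among 17 genes that respond to ERK, 13 fell and 1 rose in Cop1 KO (median -0.66), and 8 rose and 7 fell with LPS (median 0.07). The shares of all genes were 30.3% lower and 28.1% higher in Cop1 KO, and 30.2% higher and 43.4% lower with LPS. Etv4 and Etv5, ETS-family genes induced by growth factor signalling, fell in Cop1 KO by 3.23 (SE 0.25) and 0.98 (SE 0.07). With LPS, Etv5 fell by 1.49 (SE 0.08), and Etv4 stood at -0.44 (SE 0.14, edgeR adjusted p = 0.00475). The Etv4 call was lost with DESeq2 (adjusted p = 0.24), with median-of-ratios factors in edgeR (0.0555) and with limma on nRPKM (0.0616 and 0.259). Myc fell in Cop1 KO by 0.95 (SE 0.08) and Ccnd1, the cyclin D1 gene, by 0.49 (SE 0.03), though 23.4% of its exonic bases lie opposite LTO1. With LPS, Plaur and Ier3 rose by 2.80 (SE 0.03) and 2.61 (SE 0.07), while Egr2 and Fos fell by 2.53 (SE 0.09) and 1.89 (SE 0.06). Of 7 other receptor feedback genes, 4 fell and 1 rose in Cop1 KO, and 2 rose and 3 fell with LPS. Lrig1, which encodes an inhibitor of EGF receptor signalling, fell in Cop1 KO by 3.08 (SE 0.10). The sums of astrocyte and neuron markers given above differ between the same libraries as these pathway lists, and their part in these changes was not tested either.

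**Figure D5:**
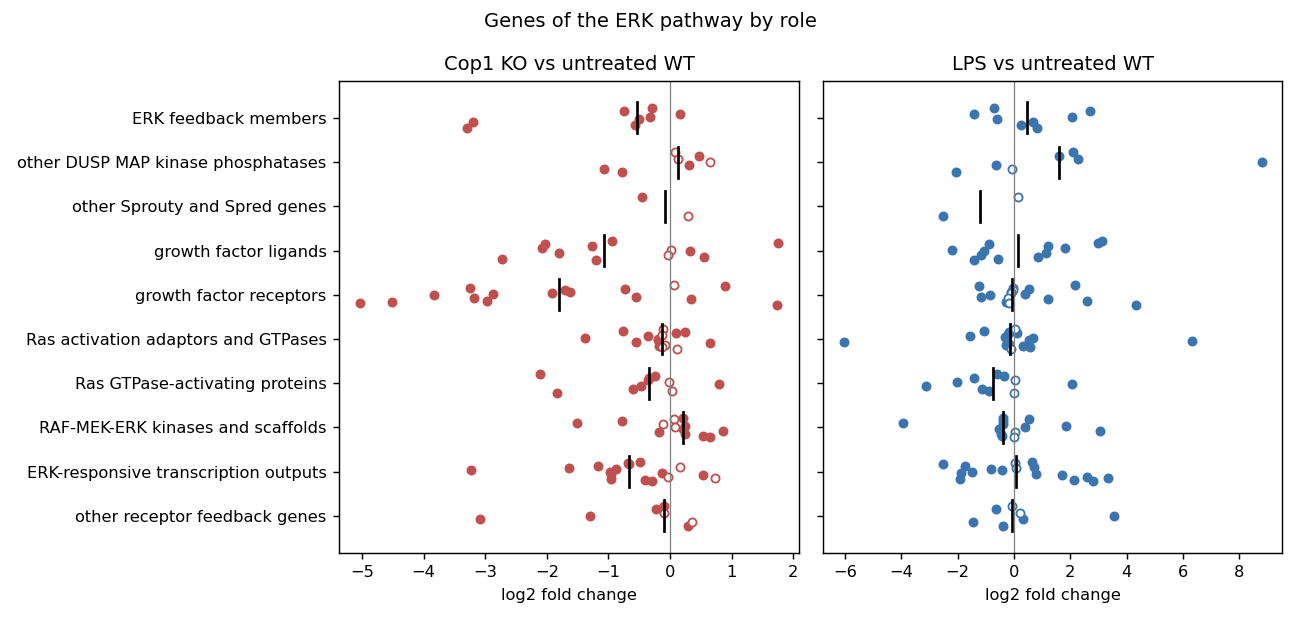
Log2 fold change of the genes of each list in Cop1 KO and with LPS, each against untreated wild type (filled points passed the test, open points did not, black bars are medians). Rasgrp1, with 0 counts in Cop1 KO, is left out of the left panel, where the growth factor receptor list has the lowest median, -1.81.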

How the data were processed

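Raw counts, as deposited, tally uniquely aligned reads per gene (per the file headers). The authors also gave nRPKM, an RPKM times a size factor of the library (per the file headers), and their ratio to the counts between 2 libraries was the same for every gene. GSNAP and GRCm38 are named in the submitters' processing notes; aligner version and annotation: not given in the sources used here. Libraries were unstranded (TruSeq v2) and single-end, per the labels' protocols. Of 36528 identifiers, 31049 took names from RefSeq, 74 from GENCODE and 5405 had none (1.07% to 1.30% of counts).

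Genes were filtered with filterByExpr (15585 kept), scaled by TMM (factors 0.806 to 1.19) and tested in R 4.3.3 with edgeR 4.0.16 in 1 quasi-likelihood fit of all 6 libraries (1 mean per group, 3 residual degrees of freedom). Benjamini-Hochberg adjustment ran over all genes tested, with calls below 0.05. Simulated counts with known changes and the spread between these libraries were run through the same fit. Of genes with a true log2 fold change of 0.5 in either direction, 62% to 74% were called, depending on the comparison. At 1 the share was 92% to 94%, and at 2 it was 100%. Replicates were numbered within a group in accession order, as names only. Alternatives were other scalings and filters, DESeq2 1.42.0, limma 3.58.1 on nRPKM and leaving out each library. Named genes are the members, all other genes of their families and the 3 nearest genes per member. They also include up to 4 genes by smallest p per list and comparison. Of marker lists, only some of the 2 most abundant genes and of those at 0 are named. Fgfr3, which marks astrocytes, and Rasgrp1 are named after their values were seen. Members and lists were chosen with earlier results of these data known.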

Additional observations from a re-analysis of the deposited data

How the results depend on the processing

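Each comparison was repeated under 14 alternatives. Of 336 repeated log2 fold changes of members, 327 kept direction and side of the threshold, 6 no longer passed, 1 newly passed and 2 reversed, and of 924 for other named genes these numbers were 902, 21, 0 and 1. All 3 reversals came with library size only: Dusp6 in Cop1 KO (-0.0237), Spry2 with LPS (-0.30) and Lrig1 with LPS (-0.22). With that scaling 0 instead of 1 member was higher in Cop1 KO and 2 instead of 5 with LPS; it lowers the median of all genes by 0.19 in Cop1 KO and 0.56 with LPS, and the median-of-ratios factors raise it by 0.08 and 0.14. The share of calls that were higher in Cop1 KO was 48.1% with TMM, 24.4% with library size only and 63.6% with limma on log2(nRPKM + 1), and with LPS 41.1%, 19.9% and 50.9%. Leaving out single libraries kept 1 member higher in Cop1 KO and gave 4 to 5 higher with LPS. Adding 1 to nRPKM shrank low genes, with Spry1 and Spry4 at -0.84 and -0.69 in Cop1 KO. Per kilobase of annotated exon, Spry2 was above Dusp6 with LPS, the other order of nRPKM, and the Dusp5 share of the 3 Dusp members with LPS was 42.8% and 39.3% in place of 58.8% and 55.2%. No paired analysis was possible because the labels give no replicate numbers; the numbers used here only name libraries within a group.

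Counts in pathway lists moved by over 1.5 times as follows, main count first and the range over alternatives after it. In Cop1 KO these were other DUSP genes higher (2; 0 to 5) and lower (2; 1 to 3), other Sprouty and Spred genes lower (1; 0 to 1), Ras proteins and activators higher (3; 1 to 4) and lower (7; 3 to 13), Ras GTPase-activating proteins higher (1; 1 to 2) and lower (7; 4 to 9), cascade kinases higher (7; 3 to 9) and lower (3; 2 to 5), ERK-responsive genes higher (1; 1 to 2) and other feedback genes lower (4; 1 to 5). With LPS they were other Sprouty and Spred genes higher (0; 0 to 1) and lower (1; 1 to 2), receptors lower (4; 3 to 9), Ras proteins and activators higher (6; 2 to 7) and lower (8; 3 to 12), cascade kinases higher (4; 2 to 6) and other feedback genes higher (2; 1 to 3) and lower (3; 3 to 6). Dusp9 lost its call in Cop1 KO without untreated replicate 1 (adjusted p = 0.054) and with DESeq2 (0.072), and Dusp10 under 8 alternatives. Spry1 and Spry4 had 7 to 13 counts per Cop1 KO library, which limits the precision of their fold changes.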
